A study of Rattus norvegicus with 22 samples.

Results

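The 10 genes described here belong to the signalling pathway of transforming growth factor beta (TGF-beta) and its close relative, the bone morphogenetic proteins (BMPs). They are the ligands Tgfb1, Tgfb2 and Tgfb3, the receptors Tgfbr1 and Tgfbr2, the intracellular mediators Smad2 and Smad3, the inhibitor Smad7, the latency protein Ltbp1 and the ligand Bmp7. They were taken by name from a list drawn up with earlier results of these data known, and all 10 were found among the 17334 genes listed for the kidneys of 22 rats. All 10 also passed the filter on low counts that left 12867 genes for testing.

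Every rat was a male PKD/Mhm (Cy/+) animal, heterozygous for the Cy allele and with polycystic kidneys, and every kidney was taken at an age of 8 months. The 6 untreated rats formed the control group, and no non-cystic rat was analysed here. Monthly injections of human adipose-derived stromal cells (ASC), 2000000 cells each over 6 months, were given to 6 rats intraperitoneally (i.p.) and to 6 rats intravenously (i.v.). Another 4 rats received ASC-derived conditioned medium (CM), the supernatant of such cells, and the sources used here differ on whether it was given i.p. or i.v. RNA came from whole tissue of the left kidney, so that fewer cells of a type and less RNA per cell cannot be told apart. Whether the entire kidney or a piece of it was used is not given in the sources used here. Each rat is named below by the library number in its sample title. Total estimated counts ran from 12195663 to 14734753 per rat, with group medians of 12932167 in untreated rats, 12915564 after i.p. ASC, 12715505 after i.v. ASC and 12954082 after CM. The lowest estimated count of any of the 10 genes in any rat was 186, for Tgfb3.

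TGF-beta is secreted as a latent complex, in which the ligand is held by its propeptide and tethered to the extracellular matrix by latent TGF-beta binding proteins. Once released, it binds the type II receptor, which activates the type I receptor, and this phosphorylates Smad2 and Smad3 so that they enter the nucleus with Smad4. In the kidney the pathway is best known for driving matrix deposition and fibrosis, while Bmp7, a product of tubular cells that signals through other Smads, is known to oppose it.

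A pair of properties of the libraries bears on every comparison. First, the library numbers 1 to 11 held 10 rats, of which only 1 was untreated, and the numbers 12 to 24 held 12 rats, of which 5 were untreated, so library number and treatment cannot be fully told apart. The numbers 12 to 24 also held 3 i.p., 2 i.v. and 2 CM rats, so values within them rest on few treated rats. Second, i.v. ASC rats 3, 9 and 13 stood apart in the markers of urothelium, the lining of the renal pelvis. The summed level of the 4 urothelium markers found (Upk1a, Upk1b, Upk2 and Upk3a) was 218, 363 and 88.7 CPM (a gene's count scaled to the size of its library) in these rats and at most 15.5 CPM in any other. The members' i.v. values without these rats are given after the description of the members.

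The regulatory sequence before the start site is shown for both receptors and for Ltbp1, since Tgfbr2 and Ltbp1 were the pair of members that varied most closely together, while the r of Tgfbr1 was 0.44 with Tgfbr2 and 0.36 with Ltbp1 over the 22 rats. The sequences are the 250 bases before the start site in RefSeq on the build GRCr8, read 5′ to 3′ on the strand of the gene. They lie at chr5:66449148-66449397 on the plus strand for Tgfbr1, at chr8:124761470-124761719 on the minus strand for Tgfbr2 and at chr6:26177302-26177551 on the minus strand for Ltbp1. Capitals mark the GC box GGGCGG and the GC-rich box GGCGCC bound by BMP Smads, each searched on both strands, where the 2 motifs may overlap.
Tgfbr1: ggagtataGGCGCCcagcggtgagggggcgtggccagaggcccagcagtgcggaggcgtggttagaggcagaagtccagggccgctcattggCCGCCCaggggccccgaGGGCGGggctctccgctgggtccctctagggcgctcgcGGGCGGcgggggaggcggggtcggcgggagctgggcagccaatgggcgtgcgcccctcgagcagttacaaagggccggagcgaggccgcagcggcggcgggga
Tgfbr2: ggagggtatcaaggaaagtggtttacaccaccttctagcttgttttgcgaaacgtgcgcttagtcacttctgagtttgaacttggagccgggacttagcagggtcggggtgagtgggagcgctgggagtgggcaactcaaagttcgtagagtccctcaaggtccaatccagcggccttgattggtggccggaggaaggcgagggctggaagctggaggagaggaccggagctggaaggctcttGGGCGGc
Ltbp1: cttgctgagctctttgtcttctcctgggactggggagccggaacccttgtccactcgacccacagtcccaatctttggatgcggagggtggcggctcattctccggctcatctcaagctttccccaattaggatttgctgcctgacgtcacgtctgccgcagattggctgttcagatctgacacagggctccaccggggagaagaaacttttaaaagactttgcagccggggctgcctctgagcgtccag

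The stretch before Tgfbr1 held 3 GC boxes and 1 GC-rich box and had a GC content of 75.6%. That before Tgfbr2 held 1 GC box and had a GC content of 58.0%, and that before Ltbp1 held neither motif and had a GC content of 56.8%. Of 33465 such stretches in the table, 30.5% held a GC box and 8.69% a GC-rich box, and their median GC content was 51.2%. A stretch was found for 9 of the 10 genes, with 2 for Smad2. The GC box was also present before Smad2, Smad3 and Smad7 and in none of the stretches of Tgfb1, Tgfb2 and Tgfb3. The GC-rich box was also present in both Smad2 stretches and, with 2 matches, before Smad7. The palindromic Smad box GTCTAGAC, found in 0.173% of all stretches, the CAGA box CAGACA, found in 17.2%, the TATA box TATAAA, found in 12.9%, and the AP-1 site TGACTCA, found in 4.05%, did not occur before any of the 9 genes. These matches only describe the letters in the windows.

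Tgfb1 was the most abundant of the 10 transcripts. Levels between genes were compared in TPM, a share of all transcripts that accounts for transcript length. Tgfb1 stood at 113 ± 31.3 TPM (SD, n = 22) and lay above Bmp7, at 63.3 ± 5.55 TPM, in 21 of 22 rats. Bmp7 and Tgfbr2, the latter at 62.5 ± 18.9 TPM, could not be ordered, since Bmp7 was the higher in 12 of 22 rats. Tgfbr2 was above Smad3 in all 22 rats. Smad3 at 25.5 ± 3.90 TPM, Tgfbr1 at 25.5 ± 3.66 TPM and Smad2 at 24.9 ± 2.59 TPM formed a set whose neighbours did not differ beyond their spread. Below them came Tgfb2 at 20.004 ± 8.22 TPM, Smad7 at 19.5 ± 4.21 TPM and Tgfb3 at 17.8 ± 6.996 TPM. Tgfb2 exceeded Smad7 in 11 of 22 rats and Smad7 exceeded Tgfb3 in 15. Ltbp1 was the lowest at 10.4 ± 3.33 TPM and lay under Tgfb3 in all 22 rats. With the median in place of the mean, Smad2 moved to rank 4 and Smad7 to rank 7.

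Of the summed TPM of the 3 TGF-beta ligands, Tgfb1 made up 74.8% ± 6.57, Tgfb2 13.2% ± 3.38 and Tgfb3 11.9% ± 4.30 (SD, n = 22). Tgfbr2, the type II receptor, was 2.41 ± 0.496 times as abundant as Tgfbr1, the type I receptor (SD, n = 22), and above it in every rat, from 1.60 to 3.27 times. Smad7, which blocks the type I receptor, stood at 0.760 ± 0.104 of the TPM of Smad3.

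The genes differed widely in how far the rats lay apart. On the log2 CPM scale the SD over the 22 rats was 0.56 for Tgfb3, 0.48 for Tgfb2, 0.41 for Tgfb1, 0.39 for Ltbp1 and 0.35 for Tgfbr2. It was 0.22 for Smad7, near the median of 0.23 over all genes tested. Tgfbr1 and Smad3 had an SD of 0.12, Bmp7 of 0.11 and Smad2 of 0.086, the last lying at the 3.43th percentile of all genes. The ligands, the type II receptor and the latency protein thus varied from rat to rat, while the type I receptor, both receptor-activated Smads and Bmp7 were nearly even.

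**Figure D1:**
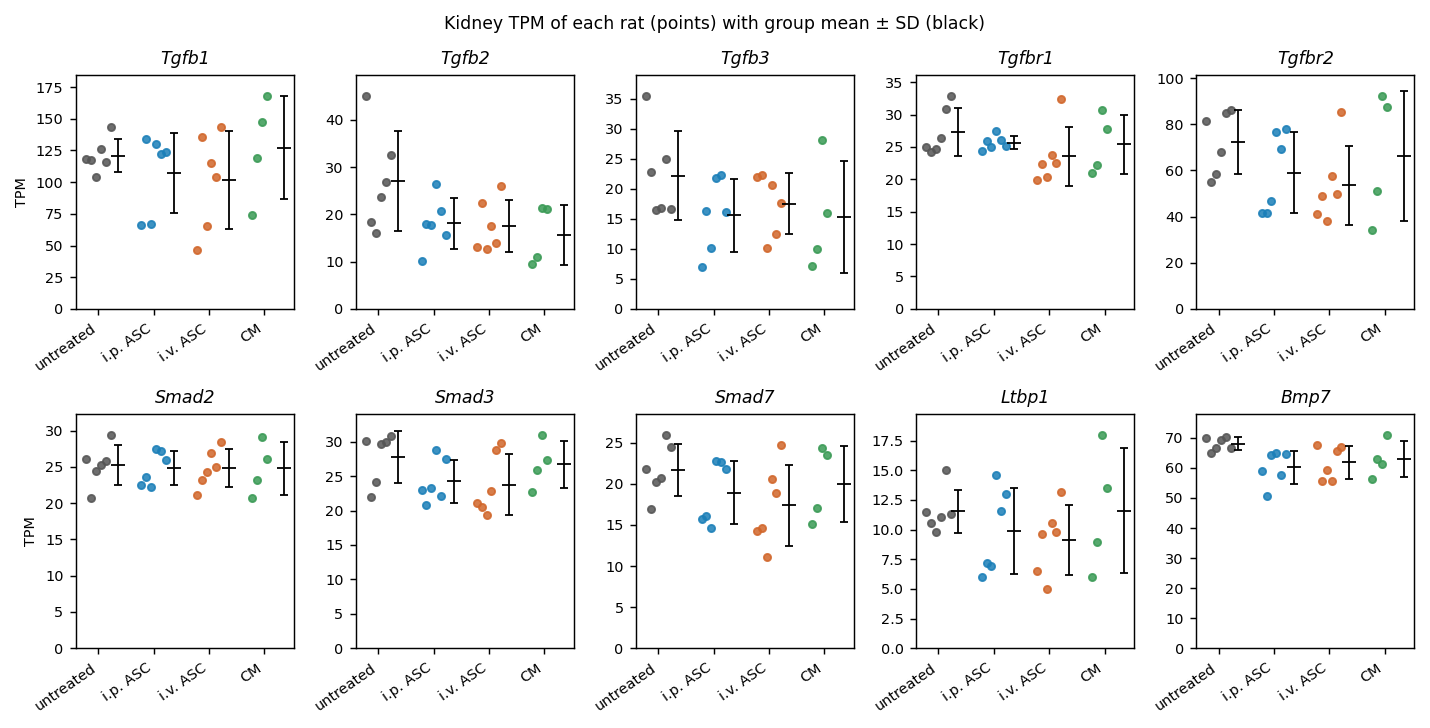
TPM of the 10 genes in each rat (points), by treatment group, with the group mean ± SD in black; n is 6, 6, 6 and 4 rats. Treated and untreated rats overlap in every panel but that of Bmp7 after i.p. ASC, where the highest treated rat was at 64.97 and the lowest untreated rat at 65.09 TPM. The share of all genes whose groups separate in TPM was not counted.

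None of the 10 genes passed the threshold in any comparison of treated with untreated rats. Differences were tested with the quasi-likelihood test of edgeR, its p-values adjusted over 12867 genes by the method of Benjamini and Hochberg, and a gene counted as called at an adjusted p below 0.05. The comparisons share the same 6 untreated rats. After i.p. ASC, 0% of all genes were called, with 500 genes or 3.89% at an unadjusted p below 0.05, and DESeq2 called 0 of 15266 genes. After i.v. ASC, edgeR called 0%, with 1133 genes or 8.81% at an unadjusted p below 0.05, while DESeq2 called 28 genes or 0.183%. After CM, edgeR called 0%, with 849 genes or 6.6% at an unadjusted p below 0.05. DESeq2 called 4 genes or 0.0262% there, which were Mast3, Med12l, Pcdhga7 and Serpine2, named after their values were seen. DESeq2 called none of the 10 members in any comparison.

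At an unadjusted p below 0.05, Tgfb2 alone of the 10 was found, after i.v. ASC and after CM, and no member after i.p. ASC. The lowest adjusted p of a member was 0.771 after i.p. ASC, 0.523 after i.v. ASC and 0.711 after CM. The log2 fold change was below 0 for 8 of the 10 genes after i.p. ASC, for 9 after i.v. ASC and for 6 after CM, against 53.8%, 52.5% and 50.9% of all genes. The median log2 fold change of the members was -0.10, -0.18 and -0.04, and that of all genes -0.014, -0.011 and -0.003. In all 3 comparisons the log2 CPM of treated and untreated rats overlapped for all 10 members, and the groups did not overlap for 0.14% of all genes after i.p. ASC, 0.179% after i.v. ASC and 1.42% after CM. A test of any difference among the 4 groups gave 11 genes or 0.0855%, with 529 or 4.11% at an unadjusted p below 0.05, and DESeq2 gave 44 of 14678 genes or 0.3%. The 11 included all 4 urothelium markers tested. No member was among the 11 or the 44, and Tgfb2 had the lowest p of the 10 (adjusted p = 0.912).

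**Figure D2:**
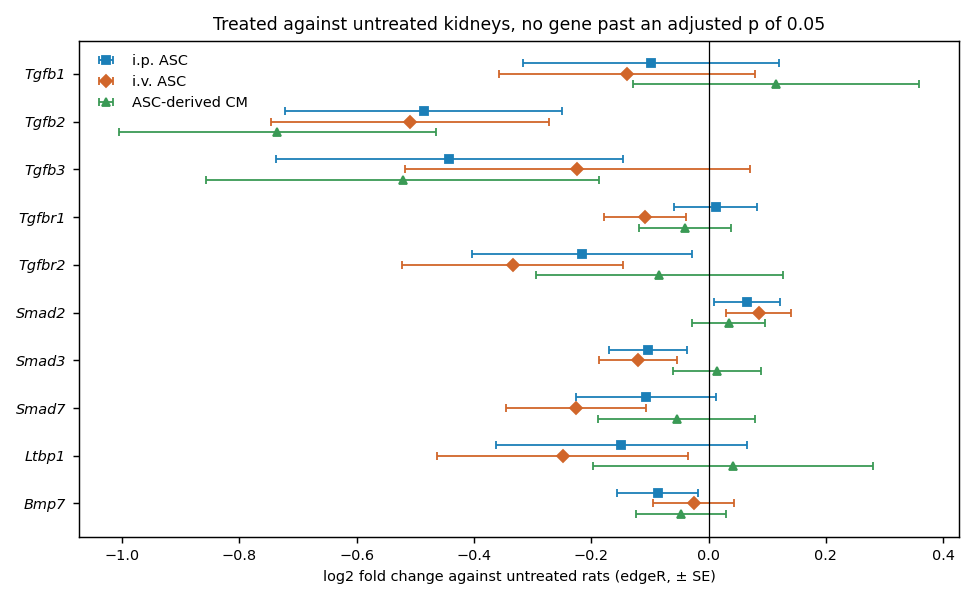
Log2 fold change of each gene in the 3 treatment groups against the 6 untreated rats, with its SE, from edgeR. Tgfb2, Tgfb3, Tgfbr2, Smad7 and Bmp7 lie to the left of 0 in all 3 comparisons, and Smad2 lies slightly to the right in all 3.

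Of the ligands, Tgfb2 had the largest fitted differences. In the 6 untreated rats it ranged from 16.04 to 45.1 TPM with a median of 25.3. After i.p. ASC it ranged from 10.2 to 26.4 TPM with a median of 17.9, and after i.v. ASC from 12.6 to 26.04 TPM with a median of 15.7. The 4 CM rats 2, 11, 19 and 21 had 9.50, 10.9, 21.3 and 21.1 TPM. The highest value of all was that of untreated rat 1, while the treated groups reached into the range of the other untreated rats. The log2 fold change was -0.49 (SE 0.24) after i.p. ASC, -0.51 (SE 0.24; adjusted p = 0.523) after i.v. ASC and -0.74 (SE 0.27; adjusted p = 0.711) after CM. Without untreated rat 1 these values were -0.28, -0.31 and -0.53, and among the library numbers 12 to 24 they were -0.15, -0.26 and -0.17.

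Tgfb1, the main ligand in these kidneys, fell into 2 sets of rats. It stood at 46.7 to 73.8 TPM in 5 rats and at 103.7 to 168 TPM in the other 17. The 5 were i.p. rats 5 and 7, i.v. rats 3 and 9 and CM rat 2, at 65.9, 67.1, 46.7, 65.2 and 73.8 TPM. All of them were treated rats, spread over the 3 treatments, and all had library numbers of 9 or lower. The 6 untreated rats ranged from 103.7 to 143 TPM with a median of 118. The i.p. rats ranged from 65.9 to 134 TPM with a median of 123, and the i.v. rats from 46.7 to 144 TPM with a median of 110. CM rats 2, 11, 19 and 21 had 73.8, 119, 148 and 168 TPM. Each treated group thus held 1 or 2 rats far below the untreated values, and in log2 CPM 1 i.p., 2 i.v. and 2 CM rats lay above all untreated rats. The log2 fold change was -0.10 (SE 0.22), -0.14 (SE 0.22) and 0.12 (SE 0.24) after i.p. ASC, i.v. ASC and CM, each smaller than its SE.

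Tgfb3, the third isoform, ranged from 16.5 to 35.5 TPM in untreated rats, from 6.92 to 22.3 TPM after i.p. ASC and from 10.1 to 22.3 TPM after i.v. ASC. Its highest value was again that of untreated rat 1. The 4 CM rats had 7.07, 9.93, 28.1 and 16.003 TPM, of which 2 lay below all untreated rats in log2 CPM and none above. Its log2 fold change was -0.44 (SE 0.30) after i.p. ASC, -0.22 (SE 0.29) after i.v. ASC and -0.52 (SE 0.33) after CM. Single rats moved these values of Tgfb3, to -0.26 after i.p. ASC and -0.046 after i.v. ASC without untreated rat 1, and to -0.92 without CM rat 19 and -0.32 without CM rat 2 after CM. Among the library numbers 12 to 24 the values were 0.038, -0.40 and 0.13, so the sign after i.p. ASC and CM was the opposite. These values rest on only 3 i.p., 2 i.v. and 2 CM rats.

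Bmp7 was high and even. The untreated rats ranged from 65.09 to 70.5 TPM with a median of 67.9, the i.p. rats from 50.7 to 64.97 TPM with a median of 61.7, and the i.v. rats from 55.7 to 67.5 TPM with a median of 62.6. The CM rats 2, 11, 19 and 21 had 56.4, 62.9, 61.3 and 70.9 TPM. On the TPM scale all 6 i.p. rats thus lay below all 6 untreated rats, if only just, but on the log2 CPM scale only 2 of the 6 lay below the lowest untreated rat. The share of all genes whose groups separated in TPM was not counted, and in log2 CPM it was 0.14% after i.p. ASC. Log2 CPM uses size factors that account for the composition of each library, while on the log2(TPM + 1) scale the median of all genes was itself lower by 0.098 after i.p. ASC, 0.117 after i.v. ASC and 0.066 after CM than in untreated rats. The edgeR log2 fold change of Bmp7 was -0.09 (SE 0.07), -0.03 (SE 0.07) and -0.05 (SE 0.08).

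Among the receptors, Tgfbr2 varied more than Tgfbr1. Tgfbr2 ranged from 54.9 to 86.2 TPM with a median of 74.7 in untreated rats, from 41.5 to 78.0 TPM with a median of 57.9 after i.p. ASC, and from 38.2 to 85.4 TPM with a median of 49.4 after i.v. ASC. The CM rats 2, 11, 19 and 21 had 34.2, 50.9, 92.3 and 87.6 TPM. In log2 CPM, 3 of 6 i.p. rats, 4 of 6 i.v. rats and 2 of 4 CM rats lay below the lowest untreated rat, and the other 2 CM rats above the highest. The log2 fold change was -0.22 (SE 0.19), -0.33 (SE 0.19; adjusted p = 0.523) and -0.08 (SE 0.21). Among the library numbers 12 to 24 it was 0.09 after i.p. ASC, -0.06 after i.v. ASC and 0.33 after CM. Tgfbr1 ranged from 19.9 to 32.9 TPM over all 22 rats, and its log2 fold changes were 0.01, -0.11 and -0.04 with SEs of 0.07, 0.07 and 0.08.

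The receptor-activated Smads were among the most even of the 10 genes. Smad2 ranged from 20.7 to 29.4 TPM and Smad3 from 19.4 to 31.0 TPM over the 22 rats. Smad2 had log2 fold changes of 0.07 (SE 0.06), 0.09 (SE 0.06) and 0.03 (SE 0.06), with 1 of 6 i.p. rats, 1 of 6 i.v. rats and 2 of 4 CM rats below the untreated median in log2 CPM. On the log2(TPM + 1) scale its values were -0.02, -0.03 and -0.03, so its direction depends on the scaling. Smad3 had log2 fold changes of -0.10 (SE 0.07), -0.12 (SE 0.07; adjusted p = 0.523) and 0.01 (SE 0.07), and 5 of 6 rats of each ASC group lay below the untreated median.

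Smad7, itself induced by TGF-beta and an inhibitor of its receptor, ranged from 16.99 to 25.9 TPM with a median of 21.3 in untreated rats. It ranged from 14.6 to 22.8 TPM with a median of 18.95 after i.p. ASC and from 11.1 to 24.7 TPM with a median of 16.8 after i.v. ASC. CM rats 2, 11, 19 and 21 had 15.1, 17.1, 24.4 and 23.5 TPM. In each treated group the rats were split, and in log2 CPM 3 i.p., 3 i.v. and 2 CM rats lay below all untreated rats and 1 CM rat above all of them. On the log2 scale the fold change was -0.11 (SE 0.12), -0.23 (SE 0.12; adjusted p = 0.523) and -0.05 (SE 0.13).

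Ltbp1, which stores latent TGF-beta in the matrix, ranged from 9.82 to 15.02 TPM with a median of 11.2 in untreated rats. It ranged from 6.01 to 14.6 TPM with a median of 9.36 after i.p. ASC and from 5.01 to 13.1 TPM with a median of 9.74 after i.v. ASC. CM rats 2, 11, 19 and 21 had 5.96, 8.92, 17.97 and 13.5 TPM. In log2 CPM, 3 i.p., 3 i.v. and 2 CM rats lay below all untreated rats, and 1 i.p. and 2 CM rats above all of them. As a log2 fold change this was -0.15 (SE 0.21), -0.25 (SE 0.21) and 0.04 (SE 0.24). When 1 rat was left out, the value of Ltbp1 ran from -0.27 to -0.048 after i.p. ASC, from -0.32 to -0.14 after i.v. ASC and from -0.17 to 0.23 after CM.

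The i.v. values of most members rested in part on rats 3, 9 and 13, the rats high in urothelium markers. Without these rats, an alternative added after the data were seen, the log2 fold change after i.v. ASC was -0.0040 for Ltbp1, -0.11 for Tgfbr2, -0.073 for Smad7, -0.23 for Tgfb2, -0.055 for Tgfb3 and -0.016 for Tgfbr1, each nearer 0 than with all 6 rats. It was 0.22 for Tgfb1, which turned its direction, and it was -0.13 for Bmp7, 0.12 for Smad2 and -0.14 for Smad3, farther from 0. The lowest adjusted p of a member was then 0.998.

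The split within the i.p. and CM groups followed the library number, and that within the i.v. group did so only in part. In the numbers 1 to 11, Ltbp1 stood at 7.82 ± 2.19 TPM (SD, n = 10), Tgfbr2 at 48.2 ± 13.5 and Smad7 at 16.1 ± 3.12, and in the numbers 12 to 24 at 12.6 ± 2.42, 74.3 ± 14.1 and 22.3 ± 2.64 (SD, n = 12). The i.p. rats with lower numbers (5, 6 and 7) had Tgfbr2 values of 41.5 to 46.7 TPM and those with higher numbers (15, 16 and 17) of 69.1 to 78.0 TPM, with no overlap. The CM rats 2 and 11 had 34.2 and 50.9 TPM and the CM rats 19 and 21 had 92.3 and 87.6 TPM. The i.v. rats overlapped, since rats 3, 8, 9 and 10 had 41.2, 49.1, 38.2 and 57.7 TPM and rats 13 and 14 had 49.8 and 85.4 TPM. In log2 CPM, i.v. rat 10 lay above i.v. rat 13 for Tgfbr2 (6.46 against 6.23), Smad7 (6.09 against 5.97) and Ltbp1 (5.70 against 5.58). Untreated rat 1, the only untreated rat with a low number, had 81.4 TPM and did not follow the split.

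Added to the fit as a covariate after the data were seen, the library number called 1707 genes or 13.3%. Among them were 3 members, Ltbp1 with a log2 change of 0.35 per 10 numbers (adjusted p = 0.0348), Tgfbr2 with 0.30 (adjusted p = 0.0366) and Smad7 with 0.19 (adjusted p = 0.0347). The other 7 were not called. What the number stands for is not given in the sources used here, and no member was called for treatment in this fit or in that on the library numbers 12 to 24. With the number in the fit, the log2 fold changes of Ltbp1, Tgfbr2 and Smad7 were -0.0085, -0.09 and -0.0085 after i.p. ASC, -0.03, -0.16 and -0.10 after i.v. ASC and 0.08, -0.06 and -0.0038 after CM. Within the library numbers 12 to 24 they were 0.19, 0.09 and 0.07 after i.p. ASC, -0.07, -0.06 and -0.03 after i.v. ASC and 0.41, 0.33 and 0.12 after CM.

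**Figure D3:**
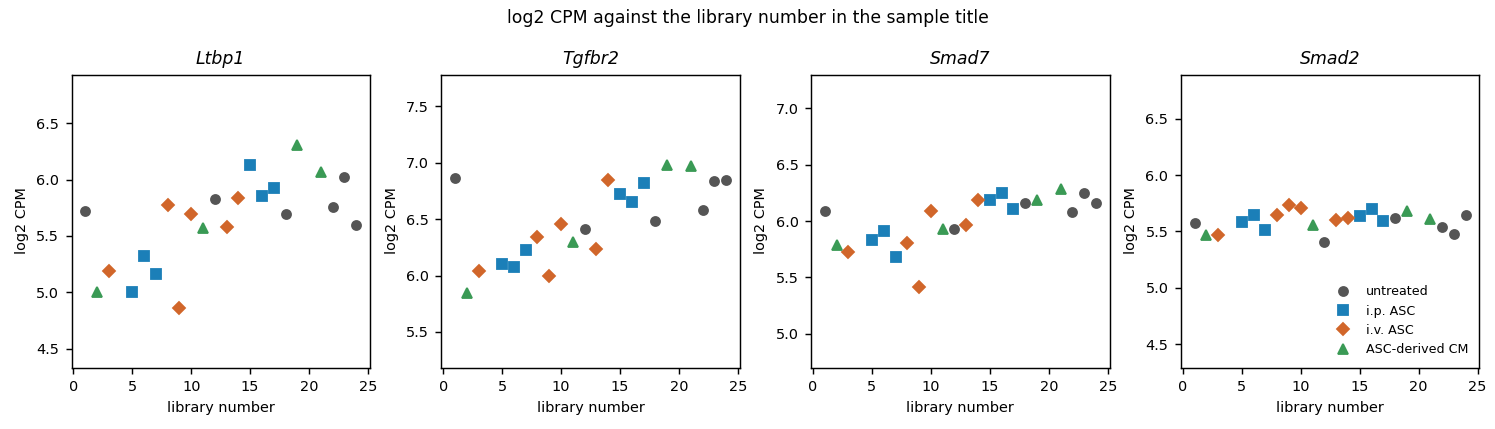
Log2 CPM of Ltbp1, Tgfbr2, Smad7 and Smad2 in each rat against its library number, by treatment group, each panel spanning the same range. The first 3 genes sit mostly lower at the numbers 1 to 11 than at the numbers 12 to 24, with overlap that includes rats 1, 10, 12 and 13, and Smad2 shows no such difference.

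As a correlation over the 22 rats, the library number went with Tgfbr2 (Pearson r = 0.69, Spearman rho = 0.66), Smad7 (r = 0.68, rho = 0.75) and Ltbp1 (r = 0.66, rho = 0.64), each with a permutation p adjusted over the 10 members of 0.00267. Without the 2 rats farthest from the median of the gene, r was 0.63, 0.76 and 0.66. Within the numbers 1 to 11, r was -0.02, -0.12 and 0.20, and within the numbers 12 to 24 it was 0.54, 0.52 and 0.08. Tgfbr1 (r = 0.51, adjusted permutation p = 0.0348) also passed. Tgfb1 was the last of the 5 members whose r passed, but its 5 low rats form a separate cluster, and its rho of 0.33 did not pass (adjusted permutation p = 0.182). For Smad3, Tgfb2, Tgfb3, Smad2 and Bmp7 the adjusted permutation p was 0.0771 or higher.

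The members that varied did so partly together. Of the 45 pairs of members, 15 passed an adjusted permutation p of 0.05 over the 22 rats in log2 CPM, 13 with a positive and 2 with a negative r. The closest 3 pairs joined the type II receptor, the latency protein and the inhibitor. Tgfbr2 and Ltbp1 had r = 0.87 and rho = 0.84 (permutation p = 1e-05, adjusted p = 0.000225), Tgfbr2 and Smad7 had r = 0.85 and rho = 0.87 (permutation p = 1e-05, adjusted p = 0.000225), and Smad7 and Ltbp1 had r = 0.85 and rho = 0.84 (permutation p = 2e-05, adjusted p = 0.0003), where 1e-05 is the smallest p these permutations can give. Without the 2 farthest rats r was 0.83, 0.85 and 0.78. Within the lower library numbers it was 0.80, 0.67 and 0.76, and within the higher ones 0.66, 0.77 and 0.50.

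Tgfb2 and Tgfb3, the less abundant ligands, had r = 0.72 and rho = 0.60 (adjusted permutation p = 0.00162), which was 0.57 without the 2 farthest rats and 0.24 within the library numbers 12 to 24. Tgfb2 also went with Tgfbr2 (r = 0.67, rho = 0.66, adjusted permutation p = 0.00472) and Tgfb3 with Ltbp1 (r = 0.63, rho = 0.58, adjusted permutation p = 0.00995). Of the 9 pairs with Tgfb1, 5 passed over all rats, where the low set of 5 rats forms a separate cluster of this gene. Over the other 17 rats, whose choice by Tgfb1 itself narrows its range, r was 0.15 with Tgfbr2, 0.12 with Ltbp1 and -0.11 with Smad7 and no member passed. Within the library numbers 12 to 24, which hold none of the 5, r was 0.71, 0.43 and 0.37, so that the relations of Tgfb1 differed with the rats taken. Bmp7 had a negative r with Smad2 (r = -0.58, rho = -0.57, adjusted permutation p = 0.0216), but r was 0.22 on the log2(TPM + 1) scale, so its sign depends on the scaling. On that scale 38 of the 45 pairs passed.

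Cell types can be read here only through marker genes, and markers of 9 lists were examined. Whether cell types lie behind the variation of the members was not tested. All genes of 8 lists and 4 of the 5 urothelium markers were found among the listed genes. None of those found was at 0 in every rat, and the most abundant were Slc34a1 for the proximal tubule, Umod for the thick ascending limb, Plvap for the endothelium, C1qa for macrophages and Dpt for fibroblasts. Of the 90 relations between a member and the mean log2 CPM of a marker list, 31 passed an adjusted permutation p of 0.05 in log2 CPM, 17 positive and 14 negative. The urothelium markers, high in 3 rats only, form separate clusters and are left out below.

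Tgfb1 went closely with the macrophage markers (Cd68, Csf1r, Cd163, Adgre1, Mrc1, C1qa and C1qb). Over the 17 rats of the upper Tgfb1 set, r was 0.87 and rho 0.76 (permutation p = 1e-05, adjusted over 18 relations p = 0.00018), and r was 0.78 without the 2 farthest rats. With the fibroblast markers (Pdgfra, Pdgfrb, Lum, Dpt and Mfap5), r was lower and rho higher, at r = 0.81 and rho = 0.81 (adjusted permutation p = 0.00108). Other members passed with these lists over the 22 rats. With the fibroblast markers r was 0.72 for Ltbp1, 0.57 for Tgfbr2, 0.55 for Tgfb3, 0.51 for Smad7 and -0.51 for Bmp7, the last turning to 0.031 on the log2(TPM + 1) scale. With the macrophage markers it was 0.64 for Ltbp1, 0.58 for Tgfbr1, 0.57 for Smad7, 0.57 for Tgfbr2 and -0.55 for Bmp7, with adjusted permutation p-values of 0.0018 to 0.0458 over both lists. Within the library numbers 12 to 24, r with the macrophage markers was 0.23 for Ltbp1, 0.45 for Tgfbr1, 0.35 for Smad7, 0.55 for Tgfbr2 and -0.09 for Bmp7. With the fibroblast markers it was there 0.67 for Ltbp1, 0.57 for Tgfbr2, 0.24 for Tgfb3, 0.31 for Smad7 and -0.39 for Bmp7. The 5 rats low in Tgfb1 were also the 5 lowest in summed macrophage markers, at 141 to 288 CPM, against at least 352 CPM in the others. They were the 5 lowest in summed fibroblast markers too, at 178 to 286 CPM against at least 327 CPM, and were low in endothelium markers, at 234 to 338 CPM. Whether the numbers of these cells differed between the kidneys was not tested.

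Ltbp1, Tgfbr2 and Smad7 went most closely with the endothelium markers (Pecam1, Cdh5, Kdr, Tek, Emcn, Plvap and Egfl7). For Ltbp1 r was 0.89 and rho 0.81 (adjusted permutation p = 0.00018), for Tgfbr2 r was 0.86 and rho 0.78 (adjusted permutation p = 0.00018), and for Smad7 r was 0.85 and rho 0.71 (adjusted permutation p = 0.0003). Without the 2 farthest rats r was 0.84, 0.85 and 0.76. Within the lower library numbers it was 0.86, 0.77 and 0.72, and within the higher ones 0.64, 0.74 and 0.72. Tgfb3 passed with these markers too (r = 0.66, rho = 0.57, adjusted permutation p = 0.0063), above its r with the fibroblast markers. Its r was 0.58 without the 2 farthest rats, 0.76 within the lower and 0.38 within the higher library numbers. The summed endothelium markers stood at 405 ± 133 CPM in the lower (SD, n = 10) and at 578 ± 79.9 CPM in the higher library numbers (SD, n = 12).

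**Figure D4:**
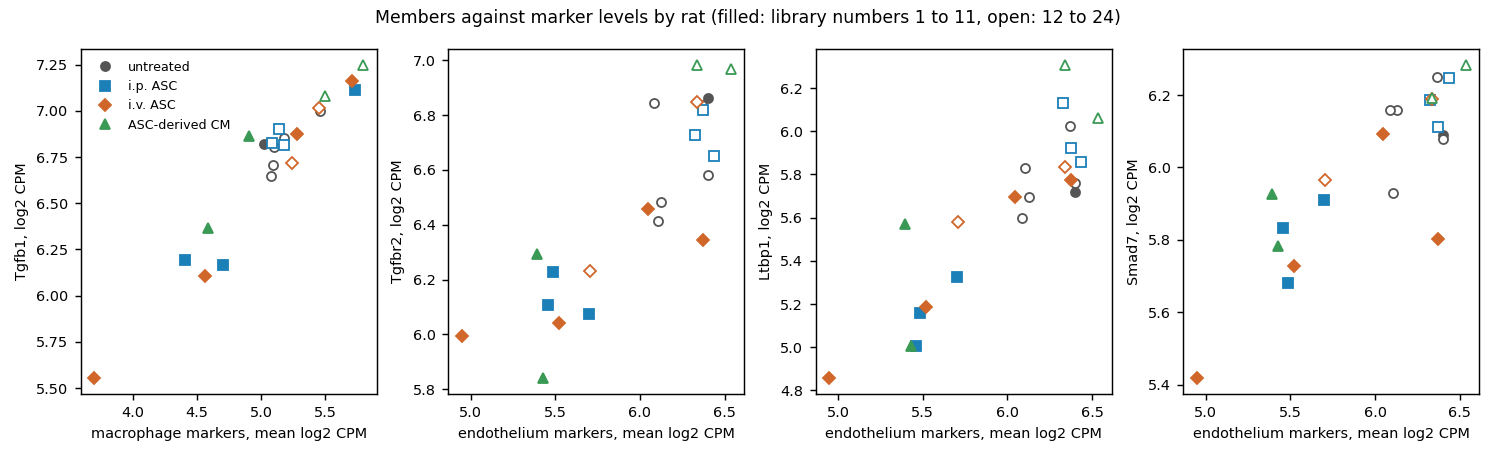
Log2 CPM of 4 members against the mean log2 CPM of a marker list in each rat; colours and symbols give the treatment group, filled symbols the library numbers 1 to 11 and open symbols 12 to 24. Tgfb1 rises with the macrophage markers, and Tgfbr2, Ltbp1 and Smad7 rise with the endothelium markers, with most open symbols at the upper right.

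Several members ran against the markers of the thick ascending limb (Umod, Slc12a1, Kcnj1, Cldn16 and Cldn10), a tubule segment. For Tgfb2, which also went with the endothelium markers (r = 0.69), r was -0.84 and rho -0.87 (adjusted permutation p = 0.00018). This r was -0.78 without the 2 farthest rats, -0.88 within the lower and -0.78 within the higher library numbers. Tgfbr2 (r = -0.72), Tgfbr1 (r = -0.60), Smad7 (r = -0.59), Tgfb3 (r = -0.56) and Ltbp1 (r = -0.52) passed as well, with adjusted permutation p-values of 0.0022 to 0.0394. Within the higher library numbers r was -0.04 for Tgfb3 and -0.11 for Ltbp1. Tgfb1 also passed over the 22 rats (r = -0.60, adjusted permutation p = 0.0154), with -0.57 within the lower and -0.62 within the higher library numbers. Over the 17 rats of the upper Tgfb1 set it did not pass (r = -0.48, adjusted permutation p = 0.196). The summed markers of this segment were at 4137 ± 1379 CPM in untreated rats (SD, n = 6), 5702 ± 1446 after i.p. ASC (SD, n = 6), 5764 ± 2256 after i.v. ASC (SD, n = 6) and 6379 ± 3788 after CM (SD, n = 4). The CM mean joined 9423 CPM in rats 2 and 11 with 3334 CPM in rats 19 and 21. Within the library numbers 12 to 24 untreated rats were at 4494 ± 1192 CPM (SD, n = 5), above the CM rats. There the i.p. rats were at 5281 ± 1306 (SD, n = 3) and the i.v. rats at 5560 ± 3523 CPM (SD, n = 2), above the untreated mean. None of its 5 genes was called in any comparison. With the markers of the collecting duct principal cell, Smad7 (r = -0.63, adjusted permutation p = 0.0138) and Tgfbr2 (r = -0.54, adjusted permutation p = 0.0275) passed, and r was -0.34 and -0.53 without the 2 farthest rats. No member passed with the proximal tubule markers, where r over all 22 rats ran from -0.36 to 0.30. Within the lower and the higher library numbers r had opposite signs there for several members, such as -0.61 and 0.60 for Tgfbr2, -0.59 and 0.31 for Ltbp1 and -0.47 and 0.42 for Smad7. Smad2 and Smad3 passed with none of the 9 lists. As the bulk RNA of all cells is mixed here, such relations do not show which cells made a transcript.

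**Figure D5:**
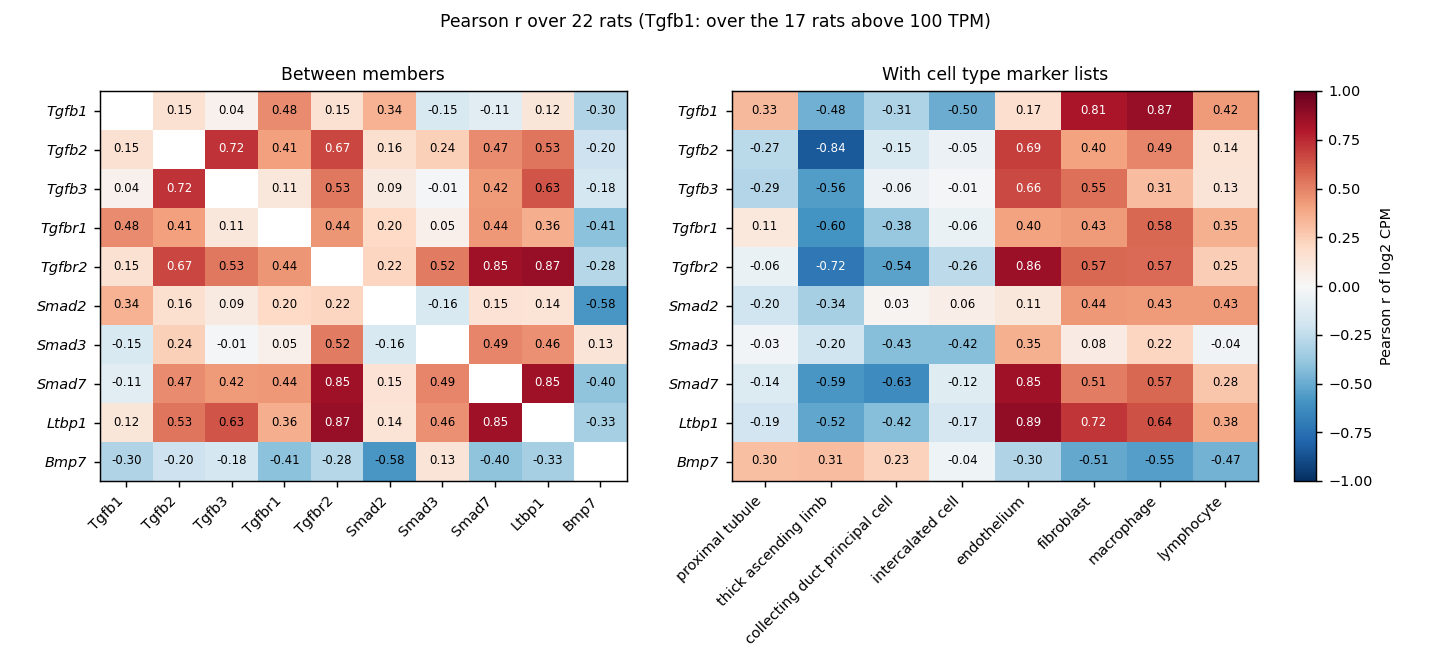
Pearson r of log2 CPM over the 22 rats between the 10 members (left) and between the members and 8 lists of cell type markers (right); the values for Tgfb1 are over the 17 rats above 100 TPM. Tgfbr2, Smad7 and Ltbp1 form a block of 0.85 to 0.87, and Tgfb1 has its highest values with the macrophage and fibroblast markers, at 0.87 and 0.81.

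The genes most alike to each member were found among 12377 genes with a mean of at least 1 CPM, by r of log2 CPM over the 22 rats. For Tgfb1 they were Pld4 and C1r, with r = 0.89 and 0.86 over the 17 rats of the upper set. For Tgfb2 they were Ltbp2 (r = 0.93) and Thbs1 (r = 0.92), and for Tgfb3 they were Flnc (r = 0.85) and Tpm2 (r = 0.83). Ltbp2 encodes another protein of the family of Ltbp1, and Thbs1 encodes thrombospondin-1, known to activate latent TGF-beta. For Tgfbr2 they were Calcrl (r = 0.96) and Nrp1 (r = 0.94), for Smad7 Dapk1 (r = 0.93) and Dennd5a (r = 0.91), and for Ltbp1 Irag1 (r = 0.93) and Pde2a (r = 0.93). For the more even genes they were Mfsd12 (r = 0.85) and Man2b1 (r = 0.81) for Tgfbr1, Fgd1 (r = 0.87) and Dcaf5 (r = 0.81) for Smad3, Baz1a (r = 0.74) and Rabgap1l (r = 0.72) for Smad2, and Mtarc2 (r = 0.76) and Golga5 (r = 0.74) for Bmp7.

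The rest of the pathway was examined in 7 lists, and no gene of any list was called in any comparison. In the storage and activation of latent TGF-beta, 10 of 11 listed genes were tested. On the log2 scale the fold change was below 0 for 8 of them after i.p. ASC, 9 after i.v. ASC and 5 after CM, with medians of -0.16, -0.20 and -0.08. The gene with the lowest unadjusted p was Thbs1 after i.p. ASC, at 76.3 ± 26.8 TPM against 139 ± 63.5 in untreated rats (SD, n = 6 each). Its edgeR log2 fold change, fitted on counts rather than TPM, was -0.76 (SE 0.29; adjusted p = 0.771), and -0.91 to -0.54 when 1 rat was left out. After i.v. ASC the lowest p was that of Ltbp2, at 24.5 ± 7.98 against 43.7 ± 18.1 TPM (SD, n = 6 each). The edgeR log2 fold change of Ltbp2 was -0.72 (SE 0.26; adjusted p = 0.523), and -0.84 to -0.50 when 1 rat was left out. After CM the lowest p was that of Itgb6, a subunit of an integrin that releases active TGF-beta. Itgb6 had a log2 fold change of -0.40 (SE 0.17; adjusted p = 0.711).

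Of 10 other receptors and co-receptors, 9 after i.p. ASC, 8 after i.v. ASC and 7 after CM had a log2 fold change below 0, with medians of -0.18, -0.22 and -0.07. Acvr1, a type I receptor for BMPs and activins, had the lowest p after i.p. ASC with -0.22 (SE 0.12; adjusted p = 0.771) and after i.v. ASC with -0.33 (SE 0.12; adjusted p = 0.523). Bmpr1a, a BMP type I receptor, had it after CM with -0.23 (SE 0.10; adjusted p = 0.711). The 4 other Smads tested of 5 were below 0 in 4, 4 and 3 of them. Smad4, the common partner of the activated Smads, stood at 53.0 ± 4.74 TPM in untreated rats and 44.4 ± 8.31 after i.v. ASC (SD, n = 6 each). Its edgeR log2 fold change, fitted on counts rather than TPM, was -0.16 (SE 0.06; adjusted p = 0.523). Smad6, an inhibitor of BMP signals, had -0.26 (SE 0.18) after i.p. ASC, and Smad1, a mediator of BMP signals, had -0.13 (SE 0.09) after CM.

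Among 12 tested inhibitors and negative regulators of 14, the log2 fold change was below 0 for 5 after i.p. ASC, 6 after i.v. ASC and 5 after CM, with medians of 0.01, -0.04 and 0.09. Dcn, the matrix proteoglycan decorin that binds TGF-beta, had the lowest p after CM, at 251 ± 109 TPM (SD, n = 4) against 170 ± 27.8 in untreated rats (SD, n = 6). Its edgeR log2 fold change, fitted on counts rather than TPM, was 0.60 (SE 0.28; adjusted p = 0.711). The ubiquitin ligase Smurf2 had -0.09 (SE 0.06) after i.p. ASC and the repressor Tgif1 -0.24 (SE 0.11; adjusted p = 0.523) after i.v. ASC. Of 10 other ligands of the superfamily, 6, 6 and 4 were below 0. Inhba, a subunit of activin A, was low throughout, at 1.03 ± 0.479 TPM in untreated rats and 0.549 ± 0.283 after i.p. ASC (SD, n = 6 each). Its edgeR log2 fold change, fitted on counts rather than TPM, was -0.84 (SE 0.39; adjusted p = 0.771), and -1.05 to -0.57 when 1 rat was left out. Bmp3 had 0.42 (SE 0.26) after i.v. ASC, and -0.35 without the rats high in urothelium markers. Bmp4 had 0.44 (SE 0.23) after CM, and 0.18 to 0.59 when 1 rat was left out.

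The 16 genes known to respond to TGF-beta were below 0 in 13 cases after i.p. ASC, 10 after i.v. ASC and 7 after CM, with medians of -0.18, -0.15 and 0.04. Tgfbi, a matrix protein named for its induction by TGF-beta, had the lowest p after i.p. ASC with 0.62 (SE 0.30; adjusted p = 0.771), and -0.06 among the library numbers 12 to 24. Its value was 0.64 (SE 0.30; adjusted p = 0.523) after i.v. ASC and 0.78 (SE 0.33; adjusted p = 0.711) after CM. Vim, the intermediate filament of mesenchymal cells, stood at 617 ± 97.1 TPM in untreated rats and 443 ± 123 after i.v. ASC (SD, n = 6 each). Its edgeR log2 fold change, fitted on counts rather than TPM, was -0.37 (SE 0.16; adjusted p = 0.523). Vim and Cdkn1a had the lowest p of this list after i.v. ASC and after CM. Cdkn1a, a brake on the cell cycle, had -0.51 (SE 0.18; adjusted p = 0.711) after CM.

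Of the 5 genes known to respond to BMPs, 4 after i.p. ASC, 3 after i.v. ASC and 2 after CM had a log2 fold change below 0, with medians of -0.15, -0.06 and 0.01. Id4, named after its values were seen, had values above 0 in all 3 comparisons, 0.48 (SE 0.36), 0.55 (SE 0.36) and 0.79 (SE 0.40), and was not called. Id2, a repressor of differentiation factors, had the lowest p of the list in each comparison. It stood at 393 ± 22.9 TPM in untreated rats, 332 ± 33.9 after i.p. ASC and 293 ± 41.7 after i.v. ASC (SD, n = 6 each), and at 321 ± 84.0 after CM (SD, n = 4). Its edgeR log2 fold change, fitted on counts rather than TPM, was -0.15 (SE 0.09), -0.30 (SE 0.09; adjusted p = 0.521) and -0.25 (SE 0.10; adjusted p = 0.711). The value after CM ran from -0.34 to -0.13 when 1 rat was left out. Its p after i.v. ASC was the lowest unadjusted p of any pathway gene in any comparison, and it did not pass after adjustment over all genes.

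The marker lists moved beside the members as follows. The 7 endothelium markers had a median log2 fold change of -0.23 after i.p. ASC and -0.31 after i.v. ASC, with all 7 below 0 in both, and of -0.23 after CM, with 6 of 7 below 0. Within the library numbers 12 to 24 their summed level was 558 ± 60.4 CPM in untreated rats (SD, n = 5), 614 ± 23.2 after i.p. ASC (SD, n = 3), 498 ± 143 after i.v. ASC (SD, n = 2) and 653 ± 63.4 after CM (SD, n = 2), above untreated after i.p. ASC and CM. The 7 macrophage markers had medians of -0.01, -0.03 and 0.08 after i.p. ASC, i.v. ASC and CM, with 3, 3 and 7 of them above 0. The 5 fibroblast markers had medians of 0.16, 0.10 and 0.47, with 4, 4 and 5 above 0, and the 6 lymphocyte markers medians of 0.15, 0.25 and 0.27, with all 6 above 0 each time. Of the tubular lists, the thick ascending limb had medians of 0.49, 0.52 and 0.67, with 4 of 5 genes above 0 each time. The proximal tubule had medians of 0.36, 0.23 and 0.30, with 6, 6 and 7 of 9 genes above 0. Its genes Slc5a12 and Slc5a2, named after their values were seen, went the other way, with -0.85 and -0.74 after i.p. ASC, -1.17 and -1.07 after i.v. ASC and -0.69 and -0.50 after CM. The collecting duct principal cell had medians of -0.01, 0.37 and -0.10 and the intercalated cell of 0.05, 0.07 and -0.43. The 4 urothelium markers had medians of -0.08, 5.48 and -0.63. No marker was called by edgeR in these 3 comparisons. At an unadjusted p below 0.05, 3 of 6 collecting duct markers were higher after i.v. ASC, as were 1 of 5 markers of the thick ascending limb and all 4 urothelium markers, while 2 of 9 proximal tubule markers were lower, against 8.81% of all genes in either direction. After CM 2 of 5 fibroblast markers and 2 of 5 of the thick ascending limb were higher, and 3 of 5 intercalated cell and 2 of 6 collecting duct markers lower, against 6.6% of all genes, and after i.p. ASC the count was 0 in each of the 9 lists, against 3.89%. With the endothelium marker level in the fit, an alternative added after the data were seen, 6 of the 10 members were below 0 after i.p. ASC, 6 after i.v. ASC and 4 after CM. Within the library numbers 12 to 24, they were 4, 7 and 2.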

How the data were processed

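RNA of 22 rat kidneys had been sequenced on a BGISEQ-500. The submitters' processing notes name Trim Galore 0.6.4, kallisto 0.4.6 and the build rn6, while the study's methods also name a human transcript package, and how these were joined is not given in the sources used here. The deposited expected counts per Entrez gene, made by the authors, were not normalized, and 14.1% were not whole, so they were rounded. The deposited TPM values were normalized by the authors for length and depth and summed to 959754 to 968550 per rat. Of 17334 genes, 17179 matched a symbol in a RefSeq table (GRCr8, used for names and the sequences before start sites only).

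All 22 rats entered 1 edgeR 4.0.16 quasi-likelihood fit in R 4.3.3 (TMM factors, filterByExpr, group as the only term), with Benjamini-Hochberg adjustment over 12867 genes and genes called below 0.05. A prior count of 2 was added for log2 CPM. Alternatives used DESeq2 1.42.0, limma 3.58.1 on log2(TPM + 1), sva 3.50.0, other filters and covariates, and fits without each rat in turn. Correlations used 100000 two-sided permutations (scipy 1.17.1). The fits were tested on simulated data. In each list the gene of lowest p per comparison was named, with the members and the 2 genes most alike to each. The members and lists were chosen with earlier results of these data known. Between any pair of libraries of 1 group, counts differed by more than sampling noise (chi-square of at least 7.53 per gene). P-values cover the spread between these rats. The depth of about 12195663 counts or more per rat left every member at 186 counts or more. Rats of other treatments were not analysed here. A list of markers of 1 further cell type is not reported here.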

Additional observations from a re-analysis of the deposited data

Results flagged for a closer look

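Of 112 groups of values (28 genes in 4 groups), 2 held a rat that lay apart from the others of its group by Dixon's criterion, where chance gives about 1 in 20. Smad3 in CM rat 2 was at 6.61 log2 CPM, below the other 3 CM rats at 6.75 to 6.77. Itgb6 in i.v. ASC rat 3, one of the rats high in urothelium markers, was at 6.18 log2 CPM, below the other 5 i.v. ASC rats at 6.60 to 6.84. The causes were not tested.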

How the results depend on the processing

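No member was called for treatment under any alternative, and no replicate numbers are shared. No paired analysis was possible because each library number occurs once. The cause of the changes below was not tested. The covariates library number and endothelium markers, the fit without rats high in urothelium markers and that on library numbers 12 to 24 were chosen after seeing the data. DESeq2 called 28 genes after i.v. ASC, 4 after CM and 44 for any difference. CM gave 1 call (Serpine2) with only the 2 groups and 3 (Med12l, Pcdhga7, Serpine2) without rats high in urothelium markers. The 11 calls for any difference became 4 with 1 surrogate variable (Krt15, Sptssb, Upk2, Upk3a), 3 with the endothelium covariate (Krt15, Sptssb, Upk2), and 0 with at least 10 counts in every rat, limma, the library number covariate, no rats high in urothelium markers, or numbers 12 to 24 only. Genes named here were chosen after their values were seen.

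The log2 fold changes that turned were the following. With limma on log2(TPM + 1) they were i.p. Tgfbr1 -0.077 and Smad2 -0.025, and i.v. Smad2 -0.027, and CM Smad2 -0.032, Smad3 -0.051 and Ltbp1 -0.085. With 1 surrogate variable they were i.p. Tgfb1 0.14, Smad7 0.0032 and Ltbp1 0.049, and i.v. Tgfb1 0.11, Tgfb3 0.10 and Ltbp1 0.0094, and CM Tgfbr1 0.0090, Tgfbr2 0.10 and Smad7 0.070. With the library number covariate they were i.p. Tgfb1 0.018, and i.v. Tgfb1 0.0045. With the endothelium covariate they were i.p. Tgfb1 0.059 and Ltbp1 0.024, and i.v. Tgfb1 0.063, Tgfb3 0.12, Ltbp1 0.051 and Bmp3 -0.070, and CM Tgfbr2 0.065 and Smad7 0.064. Without rats high in urothelium markers they were i.v. Tgfb1 0.22 and Bmp3 -0.35. With numbers 12 to 24 only they were i.p. Tgfb1 0.043, Tgfb3 0.038, Tgfbr1 -0.066, Tgfbr2 0.092, Smad7 0.065, Ltbp1 0.19 and Tgfbi -0.055, and i.v. Tgfb1 0.074 and Smad3 0.061, and CM Tgfb3 0.13, Tgfbr1 0.043, Tgfbr2 0.33, Smad7 0.12 and Smad1 0.0039. On log2(TPM + 1), 38 member pairs passed, and r was 0.096 for Tgfb1 and Bmp7, 0.22 for Smad2 and Bmp7 and 0.031 for Bmp7 and the fibroblast markers.

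Leaving out each rat in turn gave 0 to 14 calls after i.v. ASC (11 without i.v. rat 8, 14 without i.v. rat 14) and 0 to 18 for any difference (0 without i.v. rat 9, 5 without rat 3, 5 without rat 13, 18 without rat 14). Fold changes spanned 0 for i.p. Tgfbr1 (-0.021 to 0.041), i.v. Tgfb1 (-0.26 to 0.0077) and Bmp7 (-0.067 to 0.016), and CM Tgfb1 (-0.010 to 0.26), Tgfbr1 (-0.084 to 0.0012), Tgfbr2 (-0.24 to 0.092), Smad3 (-0.014 to 0.045), Smad7 (-0.14 to 0.020), Ltbp1 (-0.17 to 0.23) and Bmp7 (-0.089 to 0.0081). Values that kept their sign also moved, such as i.p. Tgfb1 (-0.19 to -0.0061) and Smad7 (-0.15 to -0.044), i.v. Smad7 (-0.29 to -0.14) and Bmp3 (0.15 to 0.55), and CM Smad2 (0.00059 to 0.062) and Smad1 (-0.20 to -0.076).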
